A study of Mus musculus with 8 samples.

Results

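The early growth response (EGR) factors and the corepressors that bind them, NAB1 and NAB2, were described in mouse embryonic fibroblasts (MEFs) with and without Lats2. Members were 6 of the 27745 gene names on the array, Egr1, Egr2, Egr3, Egr4, Nab1 and Nab2, found as the gene probes whose name in the scanner files is one of these symbols. They had 8 of the 41174 gene probes of the array, with 2 for Egr3, 2 for Nab1 and 1 for each of the other genes. The genes were chosen from the Lats2-/- over Lats2+/+ ratios of these same arrays, so the ratios of members are given as a description and carry no test.

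MEFs are fibroblasts grown out from embryos. Lats2 encodes a kinase of the Hippo pathway, which restrains the coactivators YAP and TAZ. The 2 groups were Lats2-/- and wild-type (Lats2+/+) MEFs of strain C57BL/6J, both kept in DMEM with inactivated fetal bovine serum and antibiotics and given no treatment, and the embryos' age and the time since the last change of medium are not given in the sources used here. The labels number the cultures 112, 116 and 121, and each number has 1 Lats2-/- and 1 Lats2+/+ clone name. The 6 named clones are counted here as 6 RNA extracts. These numbers are called litters here. The 2 extracts of a litter were hybridised together, in Cy3 (green) and Cy5 (red), with dyes swapped in each pair of arrays. Litter 121 had 4 arrays, and litters 112 and 116 had 2 each. Arrays of a litter measure the same 2 clones, so n is 3 litters. The titles of litter 121 name 2 replicates without saying whether their RNA was prepared separately. Litters 112 and 116 were on 1 slide and litter 121 was on another.

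EGR proteins are zinc-finger transcription factors that bind GC-rich sites. Their genes are immediate early genes: growth factors or serum switch them on within minutes, without new protein synthesis, through the ERK MAP kinases, the ELK factors and serum response factor (SRF), which binds a motif called the CArG box. NAB proteins bind EGR1, EGR2 and EGR3 and recruit the NuRD chromatin remodelling and deacetylase complex, which limits the transcription that these factors drive. EGR2 is best known from the hindbrain and from Schwann cells, where it is needed for myelin genes. In fibroblasts the family is known for a brief burst after serum.

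Sequence before the start sites is shown for Egr2, the member with the highest mean of the measured ratios, and for Nab1 and Egr4, since the EGR and NAB ratios differed. All are from RefSeq promoter windows in GRCm38.p6, which held 4 of the 6 members: 5 start sites for Egr2 and 1 each for Egr4, Nab1 and Nab2. The 250 bases before each start were searched on both strands for the CArG box, the EGR site GCGNGGGCG, the cyclic AMP response element TGACGTCA, the TEAD site GGAATG and the ETS core CCGGAA that ELK factors use. Capitals mark matches. A CArG box lay before 4 of the 5 Egr2 starts, as 2 separate boxes. The first stretch, chr10:67537494-67537523 on the plus strand, runs from -72 to -43 relative to a start and holds a CArG box followed by an ETS core. The second, chr10:67537787-67537816 on the plus strand, runs from -82 to -53 relative to the next start and holds the other box.
Egr2 first stretch: CCTTTTTTGGaaagtctcggagaaCCGGAA
Egr2 second stretch: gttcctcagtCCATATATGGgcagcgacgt

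The 250 bases before the Nab1 start, chr1:52500449-52500698 on the minus strand, held 3 matches to the EGR site, which begin at -141, -109 and -38 relative to the start, and 1 TEAD site. The 250 bases before the Egr4 start, chr6:85513590-85513839 on the minus strand, held no match to any of the 5 motifs, and neither did those before Nab2.
Nab1: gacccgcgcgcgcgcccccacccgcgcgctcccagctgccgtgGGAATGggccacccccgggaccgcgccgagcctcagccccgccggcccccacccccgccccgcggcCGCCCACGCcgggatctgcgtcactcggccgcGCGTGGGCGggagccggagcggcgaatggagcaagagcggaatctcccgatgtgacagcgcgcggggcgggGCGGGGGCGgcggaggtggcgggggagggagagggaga
Egr4: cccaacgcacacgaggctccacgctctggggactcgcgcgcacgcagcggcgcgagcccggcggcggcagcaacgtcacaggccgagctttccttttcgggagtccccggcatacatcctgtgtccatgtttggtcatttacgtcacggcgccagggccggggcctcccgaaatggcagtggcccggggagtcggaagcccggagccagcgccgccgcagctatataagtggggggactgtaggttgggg

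Over all 32851 windows of this length, 1.47% held a CArG box, 4.7% an EGR site, 1.55% a TGACGTCA, 12.6% a TEAD site and 12% an ETS core. The window of Nab1 was 80.8% G and C, against a median of 52.4% over all windows and 54% for the Egr2 window that holds the first stretch, and the EGR site is itself nearly all G and C. In that Egr2 window the TEAD site overlapped 2 overlapping ETS matches further from the start. A match is a run of letters, and these data hold no binding.

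Each channel of each array showed 52.9% to 61.3% of its gene probes well above background. Probes detected in 2 or more extracts of one genotype were kept, which left 22642 probes and 7 of the 8 member probes, for all 6 genes. The probe left out was 1 of the 2 for Egr3. Of the 4 Lats2 probes, 1 was lower in Lats2-/- cells in each litter, by log2 ratios of -1.33 (112), -1.05 (116) and -0.56 (121). The other 3 were lower in litters 112 and 116 and higher, by 0.80 to 1.17, in the extract of litter 121 labelled Lats2-/-, so every direction in litter 121 follows the label.

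Egr2 was the member with the highest mean of the measured ratios. This rank is not fixed, since the Egr4 ratios in litters 116 and 121 are lower bounds. With the processed signals Egr4 had a mean of 5.68 and Egr2 of 4.51. The Egr2 probe A_51_P173043 lies on chromosome 10 at 66937367 to 66937426 in mm8, the build of the files, on the plus strand, and was designed on the mRNA NM_010118. The log2 signal, the normalised brightness of a probe, was 14.47, 10.99 and 10.33 in Lats2-/- cells of litters 112, 116 and 121. It was 8.62, 6.70 and 8.65 in the Lats2+/+ extracts. All 3 Lats2-/- extracts were above all 3 Lats2+/+ extracts, and the lowest of the former stood 1.68 above the highest of the latter. The log2 ratios of Lats2-/- over Lats2+/+ were 5.85, 4.30 and 1.68, or 57.6-fold, 19.6-fold and 3.19-fold, with an average of 3.94 ± 2.11 (SD over n = 3). Among the 22642 kept probes this was the highest ratio in litter 112, rank 18 from the top in litter 116 and rank 322 in litter 121. With the processed signals the log2 ratio in litter 116 was 5.62 in place of 4.30, so its size depends on the processing.

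The Egr2 ratio was measured closely within each litter. The probe was printed 10 times on each array, and none of these spots was an outlier. The SD of the ratio over the 10 spots of an array was 0.043 to 0.19. Arrays of a litter lay between 5.74 and 5.95 in litter 112, between 4.19 and 4.40 in litter 116 and between 1.64 and 1.71 in litter 121, so that no array of one litter overlapped those of another. This spread lies between spots and arrays of the same clones, and each litter has 1 clone of each genotype. The step from litter 116 to litter 121 lay more in the Lats2+/+ signal, which was 1.96 higher in litter 121, than in the Lats2-/- signal, which was 0.66 higher in litter 116. The Lats2+/+ extracts of litters 112 and 121 did not differ beyond the range of their arrays (8.56 to 8.68 and 8.60 to 8.71). Litter 121 was on another slide than litters 112 and 116, so litter and slide cannot be told apart in these signals.

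**Figure D1:**
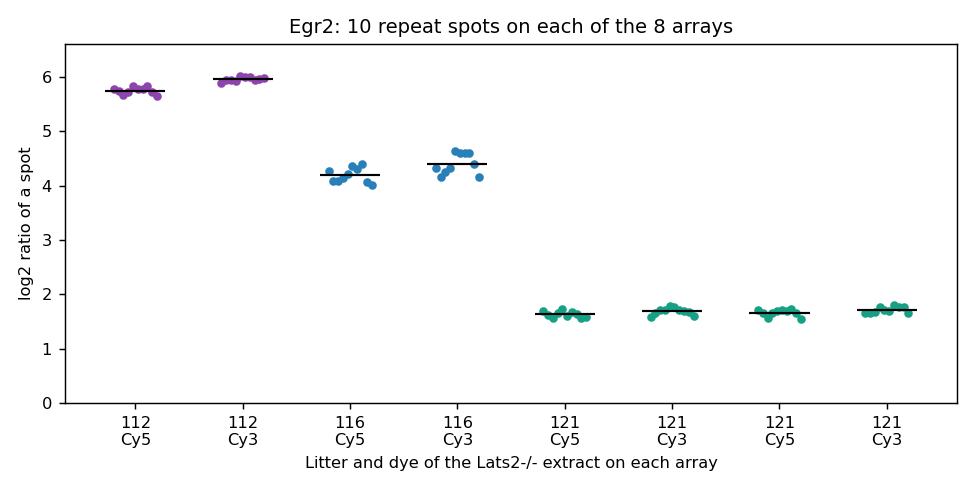
Log2 ratio of Lats2-/- over Lats2+/+ (y axis) of the 10 Egr2 spots (points) on each of the 8 arrays (x axis, by litter and by the dye of the Lats2-/- extract); black lines are array means. Spots of an array lie close together, while litters 112, 116 and 121 sit near 5.85, 4.30 and 1.68.

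Egr1, the family's founding member and a regulator of growth factor and matrix genes, was bright in every extract. Its probe A_51_P367866 (NM_007913) lies on chromosome 18 at 34990715 to 34990774 on the plus strand in mm8. The log2 signal was 15.21, 13.64 and 12.75 in the Lats2-/- extracts (litters 112, 116 and 121), and 10.82, 10.71 and 11.95 in the Lats2+/+ extracts. The genotypes did not overlap, with 0.81 between the lowest Lats2-/- and the highest Lats2+/+ extract, both of litter 121. The ratios were 4.39, 2.93 and 0.81, or 21.0-fold, 7.63-fold and 1.75-fold, with an average of 2.71 ± 1.80 (SD over n = 3 litters), and ranked 6, 81 and 1018 from the top. Each of the 8 arrays gave a higher Lats2-/- signal. The ratio was 0.30 to 0.33 higher on arrays with the Lats2-/- extract in Cy5 than in Cy3 in each litter, a dye difference that the swap averages out. The Lats2+/+ extracts of litters 112 and 116 overlapped in their array ranges, and every other neighbouring pair in the order of the 6 extracts was apart.

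Egr4, a family member known mainly from neurons and the male germ line, was seen mostly in Lats2-/- cells. Its probe A_51_P270426 (NM_020596) lies on chromosome 6 at 85476817 to 85476876 on the minus strand in mm8. The log2 signal was 11.62, 8.01 and 6.59 in Lats2-/- cells of litters 112, 116 and 121, each well above background on all arrays. In the Lats2+/+ extracts it was 6.37, 6.01 and 5.96, and the probe was well above background on 1 of 2 arrays in litter 112 and on 0 arrays in litters 116 and 121. In Lats2-/- cells Egr4 was therefore at least 3.90-fold higher (litter 116) and at least 1.48-fold higher (litter 121), while the log2 ratio in litter 112 was 5.24, over a Lats2+/+ signal partly at background. The measured mean of 2.62 ± 2.37 (SD over n = 3), 2.59 with the bounds in place, is not exact in size. In the processed signals of Agilent Feature Extraction, which replace dim values, the same litters gave 7.68, 6.04 and 3.32. Between litters, the Lats2-/- signal moved by 5.03, and the lowest Lats2-/- extract, that of litter 121, overlapped the Lats2+/+ extract of litter 112 in the range of their arrays.

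Egr3, a factor known from muscle spindles and lymphocytes, had 2 probes that differed. Probe A_52_P440836, designed on AK141603, lies on chromosome 14 at 68817252 to 68817311 on the plus strand in mm8, and gave 10.28, 8.21 and 7.09 in the Lats2-/- extracts (litters 112, 116 and 121) and 6.28, 7.53 and 6.70 in the Lats2+/+ extracts. Here the genotypes overlapped, since the Lats2+/+ extract of litter 116 was above the Lats2-/- extract of litter 121. The Lats2+/+ extract of litter 112 was not well above background, so Egr3 was at least 15.3-fold higher in Lats2-/- cells there, and the ratios in litters 116 and 121 were 0.68 and 0.39. The average, 1.69 ± 2.0 (SD over n = 3), was below the SD, and it was 0.54 without litter 112. Probe A_51_P437198, on NM_018781, lies 3152 bases closer to the 5' end, at 68814100 to 68814159. Only the Lats2-/- extract of litter 112 was well above background, at a log2 signal of 6.65, which gave a bound of at least 1.22-fold. The labelled cRNA was primed with oligo-dT, from the 3' end of transcripts, and why the 2 probes differed was not tested.

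**Figure D2:**
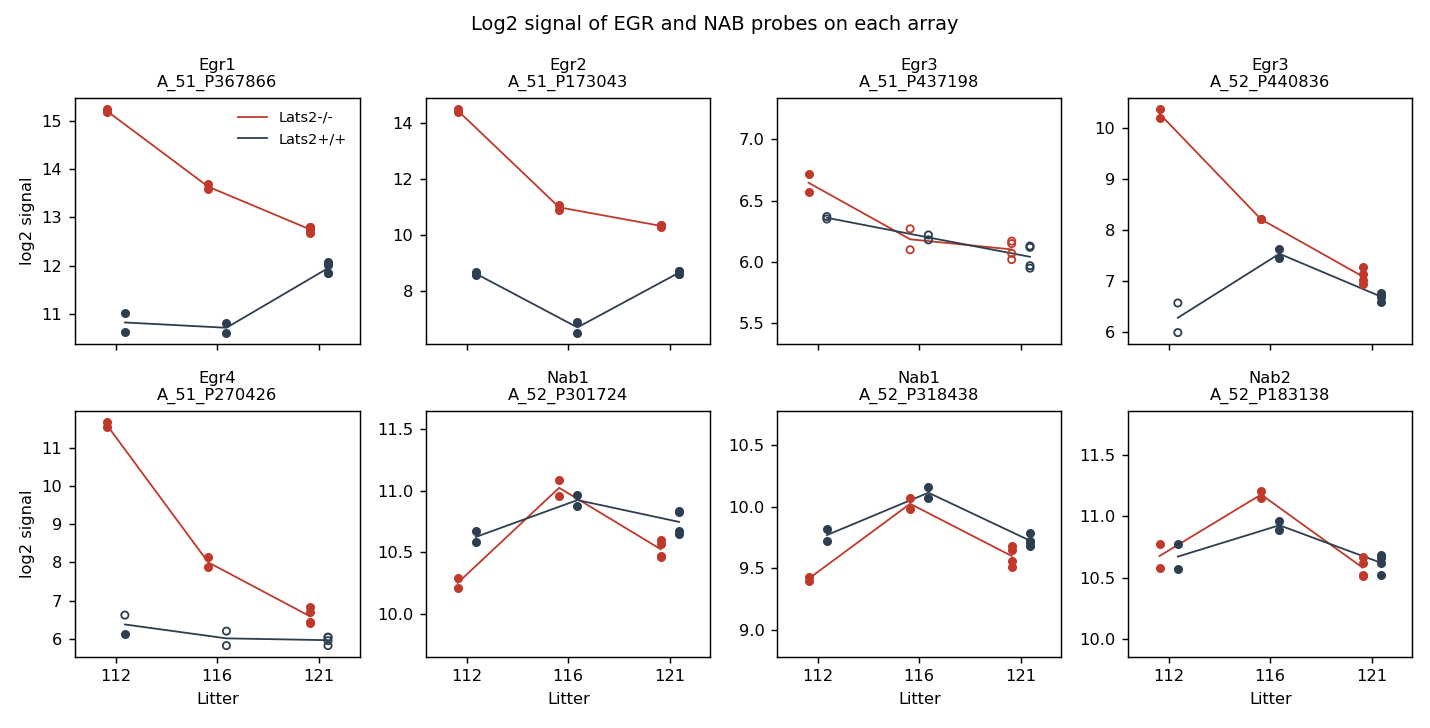
Log2 signal (y axis, own scale per panel) of the 8 member probes by litter (x axis), with Lats2-/- in red and Lats2+/+ in dark blue. Points are arrays, open where the probe was not well above background, and lines join the means of the extracts; the extract means of Egr1, Egr2 and Egr4 do not overlap between genotypes, though single Egr4 arrays do, and the Nab1 and Nab2 signals of both genotypes are highest in litter 116.

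Nab1 and Nab2 were expressed in every extract and their means differed less between genotypes than between litters. Both are on the minus strand in mm8: the Nab1 probes A_52_P318438 (NM_008667) and A_52_P301724 (AK018122) on chromosome 1 at 52402833 to 52402892 and 52401875 to 52401934, 958 bases apart, and the Nab2 probe A_52_P183138 (NM_008668) on chromosome 10 at 127063874 to 127063933. The Nab2 signal was 10.68, 11.17 and 10.58 in Lats2-/- cells of litters 112, 116 and 121 and 10.67, 10.93 and 10.62 in the Lats2+/+ extracts. Its ratios of 0.01, 0.25 and -0.04 had an average of 0.07 ± 0.15 (SD over n = 3). The highest extracts of both genotypes were those of litter 116, and the 6 extracts spanned 0.59.

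For Nab1, probe A_52_P318438 gave 9.41, 10.03 and 9.60 in the Lats2-/- extracts (litters 112, 116 and 121) and 9.77, 10.11 and 9.73 in the Lats2+/+ extracts, with ratios of -0.36, -0.08 and -0.13 and an average of -0.19 ± 0.15 (SD over n = 3). Probe A_52_P301724 gave ratios of -0.38, 0.10 and -0.23 and an average of -0.17 ± 0.24 (SD over n = 3). The genotypes overlapped for both probes, and the second changed sign between litters. The lowest ratios of both were in litter 112, where the EGR ratios were highest. Each litter value averages both dye orientations equally.

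**Figure D3:**
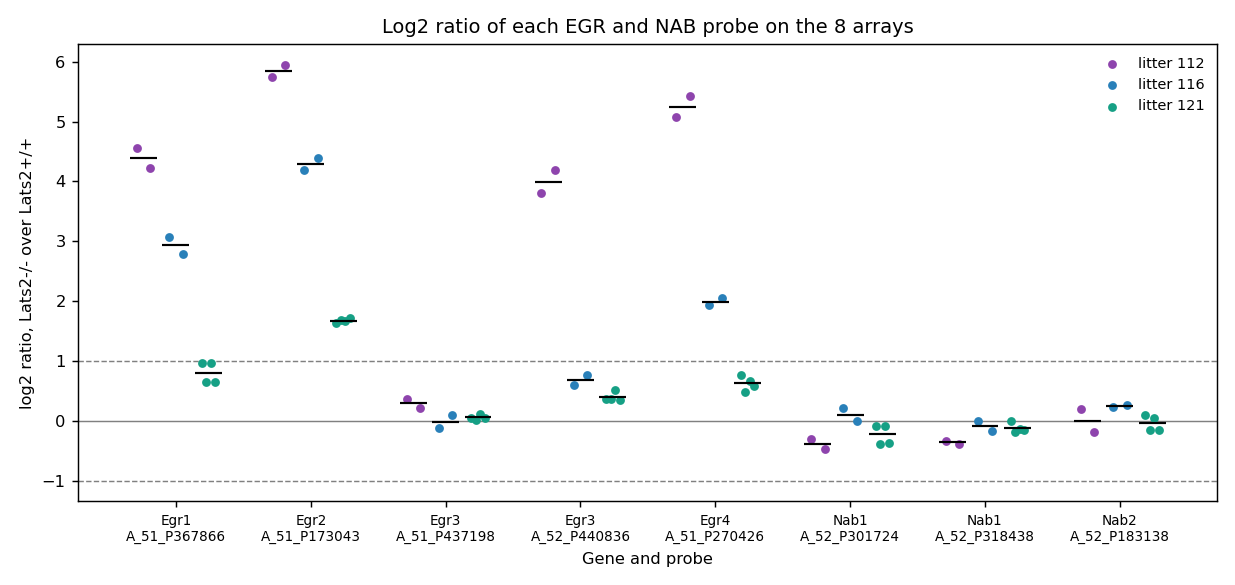
Log2 ratio of Lats2-/- over Lats2+/+ (y axis) of each member probe (x axis) on the 8 arrays (points, coloured by litter); black lines are litter means and dashed lines mark 2-fold. The measured ratios of the 4 kept EGR probes are highest in litter 112 and lowest in litter 121, and the NAB probes stay between -0.47 and 0.26 on every array.

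Across the 7 kept member probes, the EGR probes shared an order of litters in their measured ratios. In 4 of 4 the measured ratio was highest in litter 112, lower in litter 116 and lowest in litter 121, an order that 14.5% of all kept probes had. For Egr4 the values of litters 116 and 121 are lower bounds, so their order is not fixed, and for Egr3 the value of litter 112 is one. The signals of Egr1 and Egr2 had higher SDs among the Lats2-/- extracts than among the Lats2+/+ extracts, with SDs of 1.25 against 0.68 for Egr1 and 2.22 against 1.12 for Egr2. The Lats2+/+ signals of Egr3 and Egr4 lay partly at background, so their spread is not compared. Groups that did not overlap, with Lats2-/- higher, were found for 3 of the 7 kept member probes (Egr1, Egr2 and Egr4), against 3.09% of all kept probes. At least 2-fold higher in each litter was 1 of the 6 genes, Egr2, against 0.212% of all kept probes. The ratios chose the members, so nothing is read from these shares. The lowest litter ratio of Egr2 was 1.68, inside the 2-fold limit of 1 on the log2 scale, and that of Egr1 was 0.81, outside it. Egr4 cannot be placed, since litter 121 gives only the bound of at least 1.48-fold. Without litter 121, 3 genes were at least 2-fold higher in both remaining litters, Egr1, Egr2 and Egr4.

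**Figure D4:**
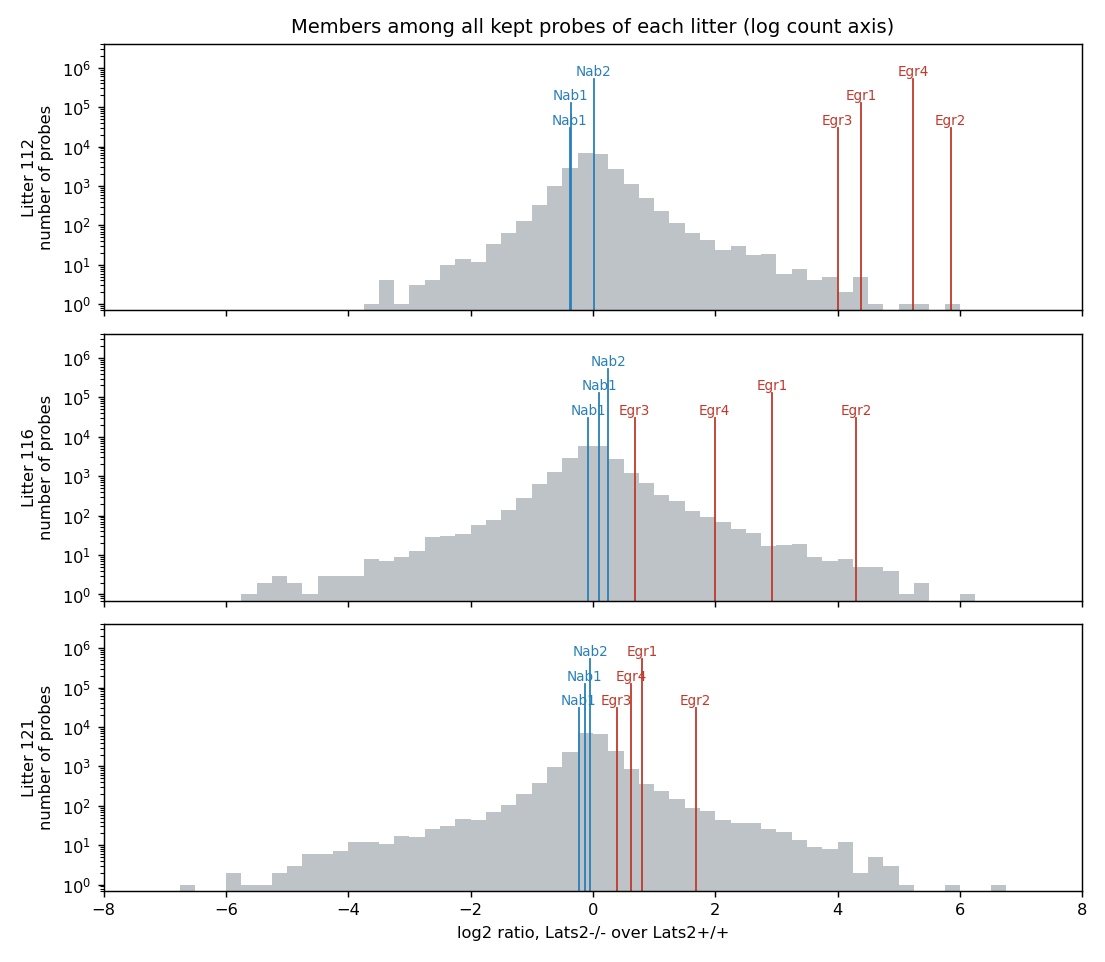
Number of kept probes (y axis, log scale) by log2 ratio of Lats2-/- over Lats2+/+ (x axis) in litters 112, 116 and 121, with the EGR probes in red and the NAB probes in blue. The EGR probes stand at the upper edge in litter 112 (the Egr3 ratio there being a lower bound) and lower in litter 121, at 0.39 to 1.68 with the Egr4 value a lower bound, and the NAB probes lie within the bulk in each litter.

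Pearson's r of the log2 signal over the 6 extracts was 0.963 between Egr1 and Egr2, 0.944 between Egr3 and Egr4, and 0.817 to 0.930 for the other 4 EGR pairs, with the brighter Egr3 probe. It was between -0.705 and -0.370 between EGR and Nab1 probes and between -0.082 and 0.212 between EGR probes and Nab2. The Nab1 probes correlated with each other at 0.950 and with Nab2 at 0.744 and 0.764. These values describe 6 extracts that fall into the 2 genotypes and share arrays in pairs. The members were chosen on the genotype ratios, which makes a high r among EGR probes likely in advance, and several Lats2+/+ signals of Egr3 and Egr4 lay at background.

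Genes whose signal pattern over the 6 extracts was most like each EGR factor were sought among 1861 kept probes that spanned at least 2 on the log2 scale. For Egr1 these were Irx1 (Pearson's r of 0.968), a homeobox gene, Egr2 (0.963) and Syt13 (0.956), a synaptotagmin. For Egr2 they were Egr1 (0.963), Nr4a1 (0.962), an immediate early gene of an orphan nuclear receptor, and Tfpi (0.949), which encodes an inhibitor of tissue factor. For Egr3 they were Tfpi (0.966), Ch25h (0.950), encoding a cholesterol hydroxylase, and Plin4 (0.947), a perilipin of lipid droplets. For Egr4 they were Tfpi (0.997), Hmgcs1 (0.962), an enzyme of cholesterol synthesis, and Thsd4 (0.957). Tfpi came up through 3 different probes. The probe nearest Egr4 gave 8.66, 6.97 and 6.21 in Lats2-/- cells of litters 112, 116 and 121 and 6.11 to 6.21 in the Lats2+/+ extracts, so that it too was highest in litter 112. These are the closest of 1861 over 6 points, which high values in 1 extract can decide.

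The pathway around the EGR factors was described through 6 lists of 70 genes, of which 63 had a kept probe. Over all 22642 kept probes limma called 0 (0%) at an adjusted p under 0.05, with a smallest adjusted p of 0.634, and so 0 of the 63 genes. At an unadjusted p under 0.05, limma gave 16 genes higher and 1 lower in Lats2-/- cells, against 3.56% of all kept probes higher and 3.29% lower. The methods' t-test on the same litter ratios gave 0 after adjustment, and 6 genes, all higher, without it. Of the 17 genes, 10 were in the list of other immediate early genes. The lists were chosen with earlier results of these data known, so nothing is read from these counts and shares.

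The upstream regulators, from RAF and ERK kinases to SRF, differed little in median between genotypes. Of 15 genes, 14 had a kept probe, with a median of the mean log2 ratios of 0.12, against 0.01 over all kept probes. Mapk3, which encodes ERK1, had ratios of 0.31, 0.51 and 0.80 in litters 112, 116 and 121, with an average of 0.54 ± 0.24 (SD over n = 3; limma p of 0.0189, adjusted p of 0.711). Srf had ratios of 0.44, 0.73 and 0.19, with an average of 0.46 ± 0.27 (SD over n = 3; limma p of 0.0382, adjusted p of 0.711). Neither passed the adjusted threshold. Elk1 was well above background in 0 extracts.

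The NuRD subunits, the machinery that NAB proteins recruit, had a median of -0.02 over 9 kept genes. Mbd3, the subunit with a methyl-CpG-binding domain, had ratios of -0.21, -0.57 and -0.31 and an average of -0.36 ± 0.18 (SD over n = 3; limma p of 0.0422, adjusted p of 0.711). The next in size was Hdac1, a deacetylase, with an average of -0.21 ± 0.26 (SD over n = 3; limma p of 0.229, adjusted p of 0.785). All 9 were well above background in all 6 extracts.

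Genes known as targets of EGR1 had ratios on both sides of 0, with none past the adjusted threshold. Of 18 genes, 15 had a kept probe, 9 with a mean above 0 and 6 below, and the median was 0.08, with litter medians of -0.02, 0.43 and -0.41. F3, which encodes tissue factor, had ratios of 1.74, 0.98 and 0.31 in litters 112, 116 and 121, with an average of 1.01 ± 0.72 (SD over n = 3; limma p of 0.0345, adjusted p of 0.711). F3 was the 1 gene of this list with an unadjusted p under 0.05. Its ratios fell in the litter order of the EGR factors, as did those of 14.5% of all kept probes. The growth factor gene Igf2 was well above background in 4 of the 6 extracts. Its signal was 6.04 and 6.22 in Lats2-/- and Lats2+/+ cells of litter 112, 8.47 and 8.04 in litter 116, and 14.29 and 10.76 in litter 121, and it did not pass the test (limma p of 0.208, adjusted p of 0.773). Hpse was well above background in 0 extracts.

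Targets of EGR2 were read in 2 lists, since the factor works in hindbrain and in Schwann cells. Of 4 hindbrain targets, 2 had a kept probe. Epha4, an ephrin receptor, gave 10.04, 7.79 and 12.22 in the Lats2-/- extracts (litters 112, 116 and 121) and 8.94, 6.28 and 10.80 in the Lats2+/+ extracts. The probe was well above background in 5 of the 6 extracts, so the size is not exact. Its measured ratios were 1.11, 1.51 and 1.42, with an average of 1.34 ± 0.21 (SD over n = 3; limma p of 0.00059, adjusted p of 0.634). Hoxb3 was well above background in 4 of the 6 extracts, with log2 signals from 6.17 to 8.56, and did not pass the test (limma p of 0.327).

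Of 6 myelin targets, 5 had a kept probe, with a median of 0.24. Pmp22, a myelin protein gene that fibroblasts also express, had ratios of 0.41, 1.06 and 0.47 and an average of 0.65 ± 0.36 (SD over n = 3; limma p of 0.0229, adjusted p of 0.711). Prx, encoding periaxin, had 0.23, 0.48 and 0.27, with an average of 0.33 ± 0.13 (SD over n = 3; limma p of 0.043, adjusted p of 0.711). Both were highest in litter 116.

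Other immediate early genes had a median above 0 in each litter, with no gene past the adjusted threshold. All 18 had a kept probe, and their median was 1.17, with litter medians of 1.65, 0.48 and 0.95. The 10 with an unadjusted limma p under 0.05 were Fos, Junb, Ier2, Dusp1, Nr4a1, Btg2, Zfp36, Arc, Cyr61 and Ctgf, all with means above 0, with adjusted p-values from 0.634 to 0.711. Fos had ratios of 5.43, 2.19 and 1.24 and Nr4a1 had 3.73, 3.15 and 1.69, in the litter order of the EGR factors, which Junb and Btg2 also had. Ctgf (1.55, 1.18 and 1.67), Cyr61 (1.51, 0.68 and 1.87) and Arc (1.39, 1.67 and 1.03) had other orders, as did Ier2 (2.66, 0.85 and 1.13), Dusp1 (1.39, 0.28 and 0.86) and Zfp36 (1.75, 0.85 and 1.04). Of the remaining 8, Fosl1 (0.76, -1.72 and -1.28), Jun (0.52, -1.35 and -0.62) and Myc (-0.05, -1.57 and -1.06) had means below 0 and did not pass the test. They were picked by the sign of their means.

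**Figure D5:**
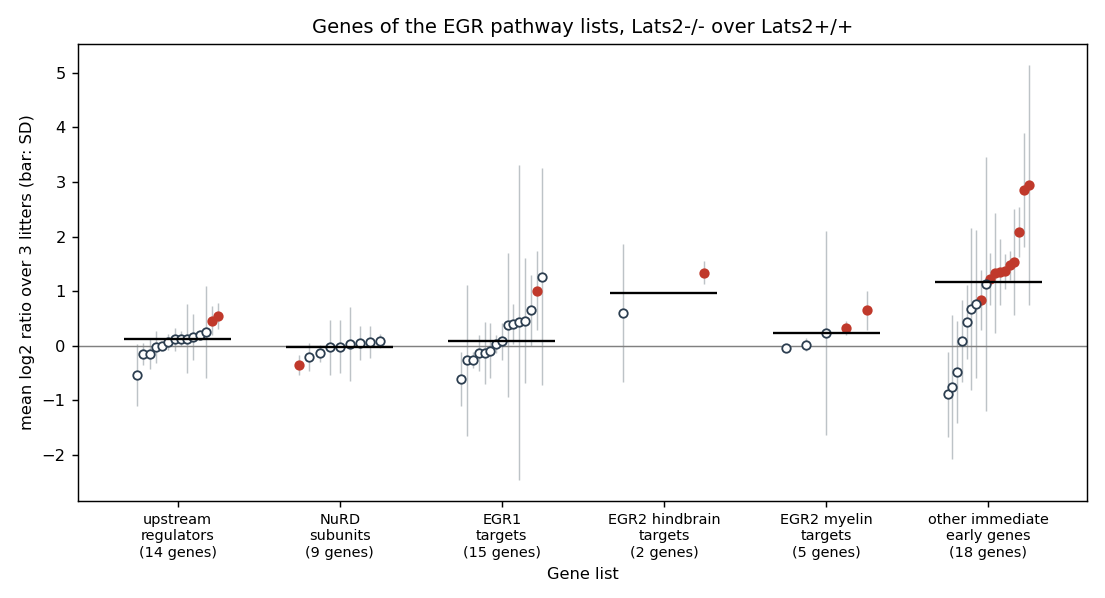
Mean log2 ratio of Lats2-/- over Lats2+/+ (y axis; grey bars, SD over 3 litters) of each gene with a kept probe in the 6 pathway lists (x axis); filled red points have an unadjusted limma p under 0.05, and black lines are list medians. The immediate early genes have the highest median (1.17), and 10 of their 18 points are filled. The lists were chosen with earlier results of these data known.

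Markers of cell type were read beside these values. The 8 fibroblast markers had kept probes, and their median ratios were 0.11, 1.94 and -2.68 in litters 112, 116 and 121. Every marker was below 0 in litter 121, from -4.96 to -0.07. In litter 116 Vim (-1.19) and S100a4 (-0.97) were below 0 and the others above, and in litter 112 the signs were mixed. In the extract of litter 121 labelled Lats2-/-, Pdgfra stood at 6.30 against 11.26 in the Lats2+/+ extract. The summed intensity of the list was 226000 to 583000 in Lats2-/- and 364000 to 602000 in Lats2+/+ extracts. Their part in the EGR ratios was not tested, and the EGR means without litter 121 were 3.66 for Egr1, 5.07 for Egr2, 2.34 for Egr3 and 3.62 for Egr4.

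Markers of other cell types followed. The 7 Schwann cell markers summed to 603 to 659 in Lats2-/- and 597 to 674 in Lats2+/+ extracts, with Sox10 at 6.35 to 6.55. Among 6 macrophage markers, each read at 1 probe, those of Ptprc, Emr1 and Itgam were well above background in 0 extracts, and the list summed to 568 to 3820 in Lats2-/- and 528 to 693 in Lats2+/+ extracts. The high value came from Lyz2 in the Lats2-/- extract of litter 121 (11.76 against 8.36). The part of other cell types in the EGR ratios was not tested. Of 4 endothelial and 4 epithelial markers, 1 and 0 had a kept probe. Endothelial sums were 279 to 331 and 279 to 292, and epithelial sums 269 to 344 and 262 to 326, in Lats2-/- and Lats2+/+ extracts. Whether fewer cells with the transcript or less transcript per cell set a level cannot be told apart in bulk RNA.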

How the data were processed

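Total RNA of 6 extracts was labelled with Cy3 and Cy5 and hybridised to 8 Agilent whole mouse genome arrays of 2 colours. The authors read the scans with Feature Extraction (Agilent), whose version is 10.5.1.1 in the submitters' processing notes and 10.7.3.1 in the headers. Deposited scanner output holds spot and local background intensity on a linear scale, not normalized, processed intensity values after background subtraction and dye normalization, and a log10 ratio of red over green. The authors' value table holds log10 ratios that matched the scanner ratios turned to Lats2-/- over Lats2+/+, within 0.005 on every array. It was used as an alternative.

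With limma 3.58.1 (R 4.3.3), normexp with an offset of 50 was applied to the mean intensities of the 45018 spots. Control spots and 860 outlier spots were left out, and 0 gene probes were saturated. Arrays were normalized by loess, ratios turned to Lats2-/- over Lats2+/+, repeat spots averaged, and the arrays of a litter averaged over both dye orientations. Log2 signals per extract followed Aquantile scaling between arrays. No difference between genotypes rests on signals of different probes; signals of different probes served to choose 1 probe per list gene and, summed, to describe marker lists. Precision is limited by how few arrays and litters there are.

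The 3 litter ratios were tested against 0 with limma (lmFit and eBayes, two-sided) and Benjamini-Hochberg adjustment over 22642 kept probes at 0.05, and the procedure was tested on simulated data. The design is paired, since both extracts of a litter share its number and its arrays. P-values measure the spread between these 3 cultures of each genotype. Slide and litter coincide for litter 121. Where a genotype was above background on no array of a litter, its partner's mean was set against the higher of the dim probe's signal and the lowest signal of probes well above background, per array, and written as at least N-fold. List genes were matched by RefSeq accession or symbol (33102 of 41174 probes), at the kept probe with the highest mean signal. The genes named were all members, the list genes with an unadjusted limma p under 0.05 (the 2 largest means where fewer than 2 had one), and the 3 genes with the highest correlation to each EGR probe that spanned at least 1 on the log2 scale. The members and the lists were chosen with earlier results of these data known. Alternatives were a strict and no filter on dim probes, an offset of 16, the processed signals, the value table, median centring, leaving out each litter, unpaired extracts, slide or litter as a random block over arrays, and the methods' t-test.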

Additional observations from a re-analysis of the deposited data

Results flagged for a closer look

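Of 24 sets of 4 array values in litter 121 (the ratio and both signals of the 8 member probes), 1 had an array far from the others. The Egr3 probe A_52_P440836 had a log2 ratio of 0.51 on the third array, against 0.34, 0.36 and 0.36 on the other arrays of the same extracts. Chance marks about 1 in 20 such sets. No member probe had every array of one litter on one side of 0 and every array of another on the opposite side.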

How the results depend on the processing

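All member means kept their sign in each alternative run, except that Nab2 turned from 0.07 to -0.02 without litter 116, within its SD of 0.15. Means moved by more than 1 SD for 2 dim probes: Egr4 rose from 2.62 to 5.68 (processed signals) and 5.69 (deposited table), and the dim Egr3 probe from 0.11 to 0.44 and 0.48. Both sources also gave 5.62 for Egr2 in litter 116 (4.30 before) and a mean of 2.67 for the brighter Egr3 probe (1.69 before). They differ in background correction, dye normalization and replacement of dim values at once, and which of these moved the values was not tested. With only the offset changed to 16, the means were 3.36 for Egr4 and 2.05 for the brighter Egr3 probe, and Egr2 in litter 116 was 4.88. With median centring these were 2.66, 1.69 and 4.21. Leaving out a litter gave 1.87 to 3.66 for Egr1, 2.99 to 5.07 for Egr2, 0.54 to 2.34 for the brighter Egr3 probe and 1.31 to 3.62 for Egr4, lowest without litter 112 and highest without litter 121. The count of genes at least 2-fold higher in each litter rose from 1 to 2 with an offset of 16, the processed signals and the deposited table, where Egr4 joined Egr2, and was 1 to 3 with a litter left out.

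With adjustment, 0 pathway genes and 0 probes were called in limma and in every alternative but 2: slide as a random block gave 8 genes and 717 probes, and arrays with litter as a random block and a dye term gave 7 genes and 203 probes, fits that count arrays of the same extracts as observations. Without adjustment, the 17 pathway genes became 6 by the methods' t-test, 7 with no replicate block, where the pairing was dropped, and 11 to 16 with a litter left out, lowest without litter 116. The 1549 probes became 554 with no replicate block, 2623 with no filter, 4028 with slide as a block and 2852 with the dye term. Median centring gave 690 higher and 851 lower, the processed signals 670 and 838, the deposited values 669 and 834, and the methods' t-test 631 and 716, against 805 and 744. The cause was not tested. Slide 2 held litter 121 alone, so its values are the within-slide values, and those without litter 121 are slide 1. Signal over background limits Egr4 and both Egr3 probes.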
